A study of Mus musculus with 25 samples.

Results

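The Hoxb cluster was read here through the CpGs that start between 96050000 and 96235000 on chromosome 11 (mm9), a stretch that runs from Hoxb13 to Hoxb1 and holds 10 Hox genes: Hoxb13, Hoxb9, Hoxb8, Hoxb7, Hoxb6, Hoxb5, Hoxb4, Hoxb3, Hoxb2 and Hoxb1. Its CpGs were selected on measured values: the cluster held the longest run of tiles that gained methylation from fetal to young cells, at chr11:96203001-96208000. Of 1587545 CpGs with at least 5 reads in 1 or more of the 25 libraries, 886 lay in the cluster. Of 588138 CpGs that reached 5 reads throughout the 25 libraries, 327 did.

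Hox genes encode homeodomain transcription factors that set position along the body axis, and the order of the genes along the chromosome follows the order of their use in the embryo. In blood, forced expression of Hoxb4 expands haematopoietic stem cells (HSCs), which maintain themselves and feed every blood lineage, and Hoxb5 marks HSCs that sustain blood for long after transplantation. The CpG-rich starts of Hox genes are usually free of DNA methylation and are bound by Polycomb or Trithorax complexes, which keep the genes off or on.

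Methylation was measured by reduced representation bisulfite sequencing (RRBS), which samples CpG-rich restriction fragments and reads an unmethylated cytosine as thymine. All cells were HSCs of C57Bl/6 mice. The fetal group came from fetal liver at e14.5 (n = 2), and every other group from bone marrow: young mice of 3.5 months (n = 2), old mice of 25 months (n = 2), and mice of 3.5 months followed for 6 months after none (0 doses, n = 3), 2 (n = 3) or 4 (n = 2) treatments with 5-fluorouracil (5-FU), a drug that kills dividing cells. In the remaining groups HSCs had been transplanted: 10 young cells (n = 3), 50 young cells (n = 1), 500 young cells (n = 1), 10 old cells (n = 2), 50 old cells (n = 1) and 500 old cells (n = 3). The labels give no sex, no recipient and no time after transplantation, and do not say whether replicates came from separate animals, so that the p-values measure a spread between libraries that may be technical. Libraries held 22835325 to 105187091 reads, and 520 to 781 CpGs of the cluster with at least 5 reads, at a median of 17 to 75 reads. A level is the percentage of methylated reads, so a change in the share of methylated cells and a change in which cells were collected cannot be told apart.

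The genes were placed on the files through the promoter sequences of RefSeq (GRCm38.p6), each 250 bases before to 50 bases after a start, by the spacing of their CpGs. This located 4 starts: Gm30134 with 19 of 19 listed CpGs on a CG pair, Gm51876 with 5 of 5, Hoxb3os with 13 of 13 and Hoxb1 with 4 of 4. The distances between neighbouring starts were the same number of bases in the files as in the reference, for example 12163 bases from the Hoxb3os to the Hoxb1 window. Hoxb1 was the only 1 of the 10 Hox genes placed this way. The sequences of Hoxb4 and Hoxb8 could not be placed by this rule, and the other 7 genes had no promoter sequence. All of these genes are located here only by the order of their lowest coordinates. Hoxb13 came before Gm30134, and Hoxb9 to Hoxb3 and Hoxb4 came between Gm51876 and Hoxb3os. Hoxb2 came between Hoxb3os and Hoxb1. Hoxb3os lies on the minus strand, so the side of its start on which Hoxb2 lies is not known from this order. Exons and introns were not placed.

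The placed starts of Hoxb3os and Hoxb1 are shown because the run and the changing Hoxb1 tile described below lie on either side of them. Capitals mark the CpGs measured with at least 5 reads, and the sequences are from RefSeq, GRCm38.p6, each on the strand of its gene.
Hoxb3os, start window: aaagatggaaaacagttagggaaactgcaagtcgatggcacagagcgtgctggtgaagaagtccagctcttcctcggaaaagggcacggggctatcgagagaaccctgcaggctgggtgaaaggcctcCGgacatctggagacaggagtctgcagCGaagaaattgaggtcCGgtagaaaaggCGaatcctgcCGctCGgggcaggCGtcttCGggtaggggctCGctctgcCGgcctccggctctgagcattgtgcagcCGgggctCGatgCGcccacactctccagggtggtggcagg
Hoxb1, start window: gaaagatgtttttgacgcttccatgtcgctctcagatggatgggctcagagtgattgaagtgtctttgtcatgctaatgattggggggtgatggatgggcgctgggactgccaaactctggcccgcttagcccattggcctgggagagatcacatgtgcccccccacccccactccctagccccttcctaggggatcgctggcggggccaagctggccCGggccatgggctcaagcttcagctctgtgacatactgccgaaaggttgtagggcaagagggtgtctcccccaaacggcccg

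The Hoxb3os window, the start of a non-coding RNA that runs antisense to Hoxb3 and lies at chr11:96214659-96214958 on the minus strand, held 19 CG pairs, of which 13 were measured. Its 4 CpGs covered in every library had levels from 0 to 2.04%, and 11 of its 13 CpGs had a median level of 0 over the libraries. Over these 4 CpGs the start was near 0% in fetal, adult, drug-treated and transplanted cells alike. The Hoxb1 window at chr11:96226822-96227121 on the plus strand held 10 CG pairs, of which 1 was measured, at 96227040. That CpG had a median level of 17.9% over the 25 libraries, with a range of 0 to 47.6% at 8 to 93 reads, too few reads to compare single libraries. The tile that holds the Hoxb1 start, 96227001, stood at 1.89 to 13.8% over the libraries. The Hoxb1 window also held 1 match to TGATNNAT, a motif bound by Pbx and Hox proteins together (searched on both strands), which 8.85% of all 32851 promoter windows hold. The Hoxb3os window held none.

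For a level in every library, CpGs that reached 5 reads in all 25 libraries were summed over tiles of 1000 bases, and 42 tiles of the cluster held at least 3 such CpGs (315 CpGs). In 19 of these tiles, with 177 CpGs, every library was below 10%. That is 45.2% of the tiles of the cluster, against 31.7% of 53794 tiles over all autosomes. Most of the low tiles lay between Gm51876 and Hoxb3os, the stretch of Hoxb9 to Hoxb4, where 13 of 24 tiles stayed under 10% throughout. That stretch held most of the 42 tiles, and the share of low tiles was similar before Gm30134, with 4 of 7. A tile of 29 CpGs at 96133001 had levels of 0.165 to 2.19%, and one of 21 CpGs at 96176001 had 0 to 2.99%.

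Methylation between 20 and 80% in at least 1 group was found in 13 tiles, or 31% of the cluster against 37.2% of all tiles. These tiles were not spread evenly. They lay before and at Gm51876, from 96110001 to 96130001, between Hoxb13 and Hoxb9, at 96194001, in the run, at 96215001 beside Hoxb3os, and at 96228001 just after the Hoxb1 start. Tile 96054001, near Hoxb13, had the narrowest range of group means of the 13, from 6.42 to 22.4%. The widest range was at 96194001, from 22.8% in fetal to 92.7% in mice with 0 doses of 5-FU.

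**Figure D1:**
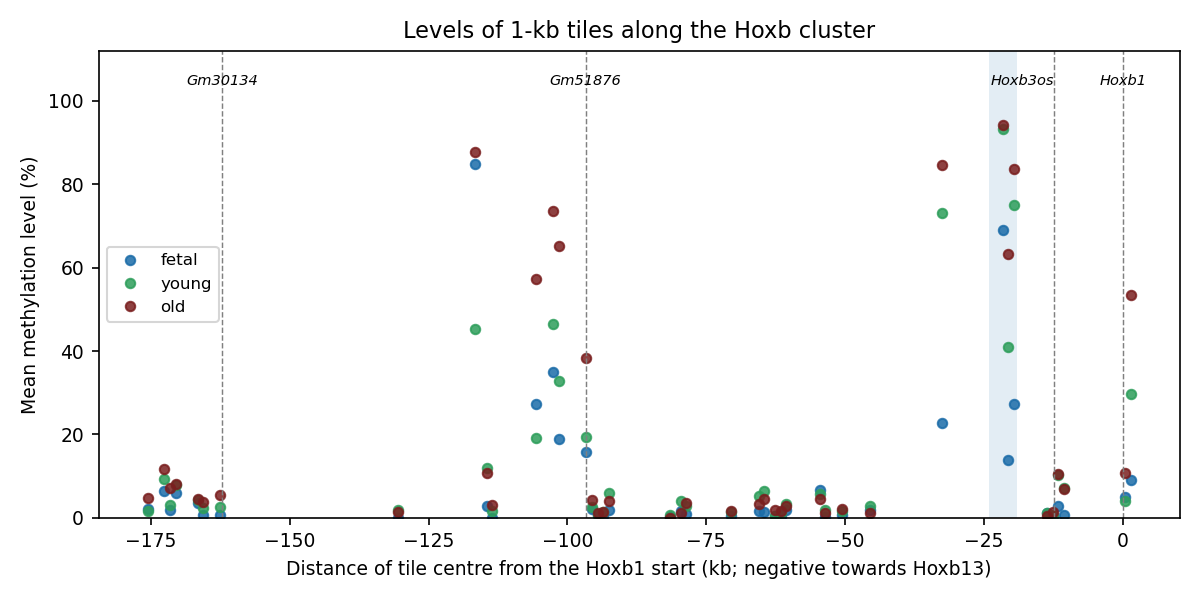
Mean methylation level (%) of the 42 tiles covered in all libraries, for fetal, young and old HSCs (n = 2 each), against the distance of the tile centre from the Hoxb1 start in kb. Dashed lines mark the 4 placed starts and the shaded band the run. Of the 42 tiles, 19 were below 10% in every library. Levels that differ between ages stand in a few places, such as 22.8% in fetal cells at the tile before the run.

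The run lay in the stretch that ends at Hoxb3os. It held 19 CpGs covered in every library, with 329 to 1376 reads per library over 1923 bases. All 19 lay from 96205547 on, so the summed level leaves out tile 96203001. The last of them was 7239 bases from the Hoxb3os start, on the side of Hoxb4. The summed level was 22.1 and 31.4% in the fetal libraries, and 58.5 and 60.8% in the young ones. Group means were 26.7% ± 6.58 (SD, n = 2) in fetal and 59.6% ± 1.62 (n = 2) in young cells, a difference of 32.9 points. This difference chose the run and is given as a description only. With 1 library of either group left out it lay between 28.2 and 37.5 points.

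The 23 libraries that were not fetal ranged from 52.9 to 87.6%. The fetal and young libraries chose the run, so their distance, and that of any other group from the fetal libraries, is a description only. The lowest of the 23 was 1 of 10 old cells transplanted, at 52.9%, and the highest was 1 of 4 doses of 5-FU, at 87.6%. Over all CpGs that each library covered in the run, the old libraries stood at 78.4 and 83.5%, the latter the highest of all. The 4-dose libraries then stood at 77.6 and 79.6%, so the order below holds for the 19 shared CpGs. In order, the group means were 80% ± 10.8 after 4 doses of 5-FU (n = 2), 75.2% ± 10.7 in old (n = 2), 73.4% after 50 young cells (n = 1), 71.2% ± 5.67 after 500 old cells (n = 3) and 70.5% after 50 old cells (n = 1). They went on with 67.9% ± 9.04 after 0 doses (n = 3), 66.2% ± 8.85 after 2 doses (n = 3), 65% ± 17.2 after 10 old cells (n = 2), 64.1% after 500 young cells (n = 1), 59.6% in young and 56.4% ± 1.61 after 10 young cells (n = 3). Neighbours in this order above fetal overlapped, apart from 2 pairs. The single library of 500 young cells, at 64.1%, lay above both young libraries, at 58.5 and 60.8%. These lay above the 3 libraries of 10 young cells, at 54.8 to 58%. Over all CpGs that each library covered in the run, 500 young cells stood at 60.8% and the young libraries at 62.5 and 62.7%. The libraries of 10 young cells then stood at 63.3, 58.2 and 54.7%, so neither of these 2 orders held.

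**Figure D2:**
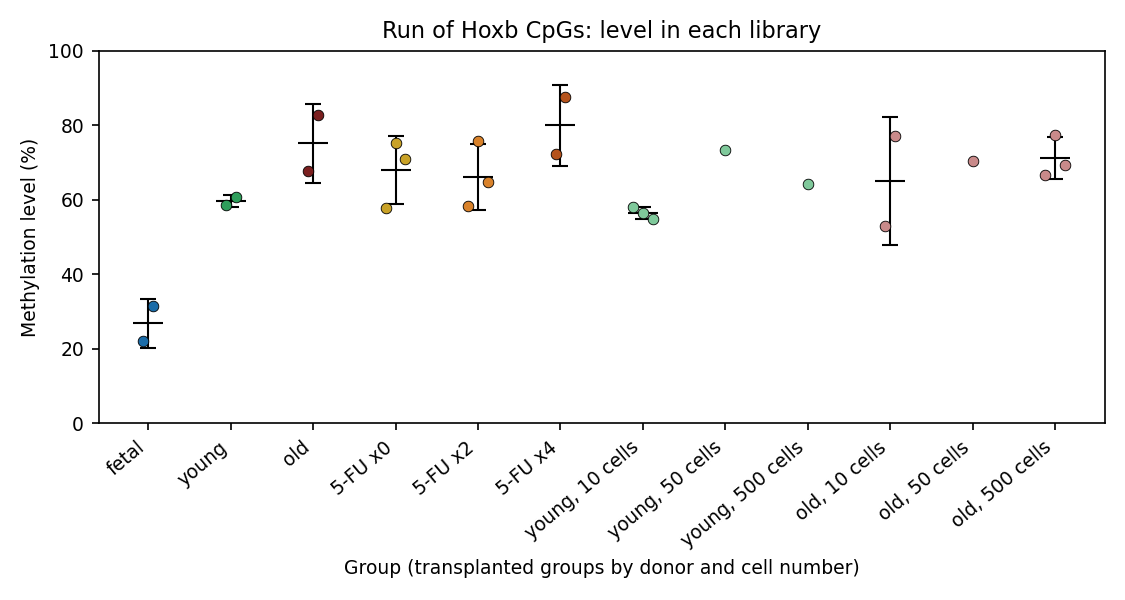
Methylation level (%) of the run in each library (points), by group. Levels are summed over its 19 CpGs covered in every library, and bars give the group mean and SD where n is 2 or more. The 2 fetal libraries sit at 22.1 and 31.4%, below all 23 others, which lie between 52.9 and 87.6%.

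The 19 CpGs of the run covered in every library formed 3 groups that did not behave alike. The first 5 CpGs, from 96205547 to 96206003, were already at 61.8 to 84.1% in fetal cells and at 88.5 to 100% in young ones. The next 9 CpGs lay within 34 bases, from 96206968 to 96207001, and had fetal means of 0 to 13.2% and young means of 6.09 to 53%. The last 5, from 96207394 to 96207469, went from 23.9 to 40.4% in fetal to 67 to 91.8% in young cells. CpGs this close are read from the same fragments and are not independent.

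Within the middle group the levels split again. The CpG at 96206968 was at 0% in both fetal libraries, 6.09% in young, 28.7% in old and 15.1% in mice with 0 doses of 5-FU. Its neighbour at 96206974 had 0.556, 15, 38.5 and 36.8% in the same groups. From the third CpG of the group on, 96206978, levels were far higher: 9.48% in fetal, 44.8% in young, 61.6% in old and 60.4% with 0 doses. A step of this kind between CpGs 4 bases apart was seen in the young and old groups and with 0 doses. It was smaller after 10 young cells, with 30.4 and 37.6% at 96206974 and 96206978.

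**Figure D3:**
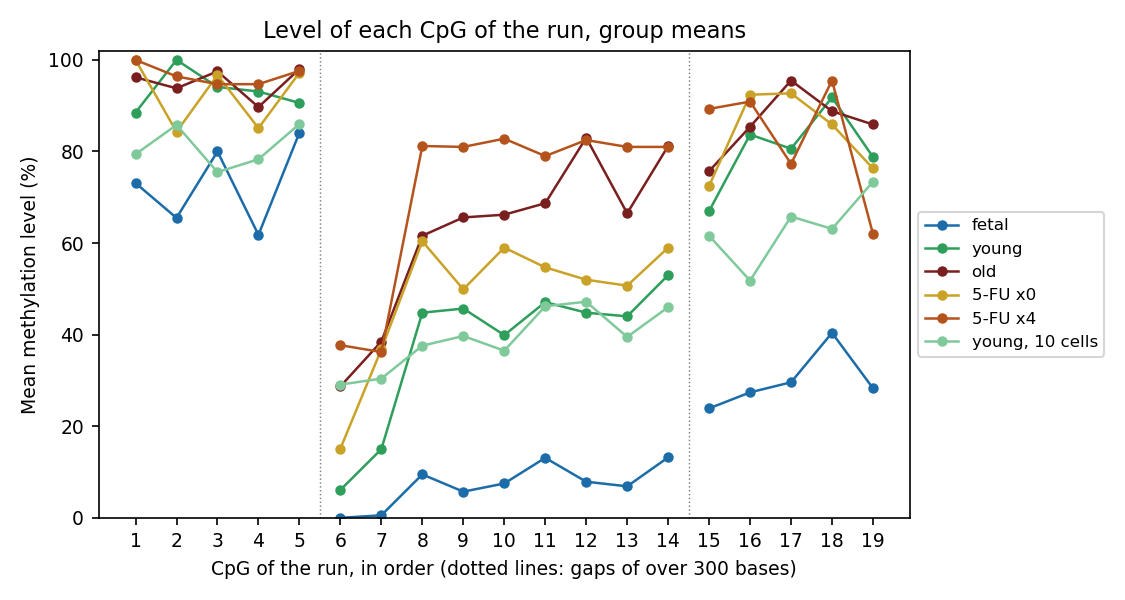
Mean methylation level (%) of each of the 19 CpGs of the run covered in every library, in order, for 6 groups. Dotted lines mark gaps of over 300 bases. CpGs 1 to 5 are high in every group shown, CpGs 6 to 14 are at 0 to 13.2% in fetal cells, and CpGs 6 and 7 stay below the rest of their group.

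Tests used tiles with at least 3 CpGs at 5 or more reads in every library of a fit, so the CpGs in a tile, and its levels, differ somewhat between fits. A tile was called changed at an adjusted p under 0.05 (quasi-binomial model with dispersions moderated by limma, Benjamini-Hochberg over all autosomal tiles) and a difference of at least 10 points. In young against fetal, 9 of 52 tiles of the cluster were higher, against 2.02% of all tiles, and 1 was lower, against 4.02% of all tiles. The cluster was chosen on this contrast, so nothing is read from these counts.

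Of the 9, the largest difference was at tile 96203001 in the run. Its levels (7 CpGs) were 16.4 and 25.2% in the fetal libraries and 87.7 and 73.4% in the young, a difference of 59.8 points. Tile 96194001, the first tested tile before the run, went from 25.6 and 22.9% to 65 and 77.5%. Tile 96207001, with 22 CpGs, went from 25.4 and 28.8% to 64.4 and 66.8%. These 3 were named among tiles in which the groups did not overlap.
Tile 96206001 rose by 27 points to 40.9% ± 3.06 (n = 2), and tile 96205001, already at 73.8% ± 1.73 in fetal cells, by 13.4 points. The first tested tile after the run, 96213001, differed by 0.499 points at a level near 1%. The other gains were at 96125001 and 96130001 around the Gm51876 start, at 96163001 in the Hoxb9 to Hoxb4 stretch, and at 96228001 after the Hoxb1 start, where levels went from 9.51 and 7.32% to 21.9 and 24.8%. The single loss was at 96110001, between Hoxb13 and Hoxb9, from 91.3 and 86.6% in fetal to 59.4 and 65% in young cells.

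With 1 fetal or young library left out, 4 to 8 of the 52 tiles were called. Without fetal replicate 1 the count was 4, without young replicate 2 it was 5.

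From young to old bone marrow the cluster gained methylation in 9 of 52 tiles, against 3.63% of all tiles, and lost it in 0, against 0.231% of all tiles. At an unadjusted p under 0.05 the cluster held 17 tiles in either direction, which is 32.7% of its tiles, against 14.9% of all tiles. This comparison shares the young libraries with the contrast that chose the cluster. The median difference over the 52 tiles was 1.15 points, against 1.54 points over all tiles. Of the 9 gains, 5 lay between the starts of Gm30134 and Gm51876, a stretch of 10 tested tiles between Hoxb13 and Hoxb9, and 2 lay in the run.

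The largest gain was at 96121001. Its levels (8 CpGs) were 17.3 and 22.7% in young and 59 and 52.4% in old cells, a rise of 35.7 points (adjusted p = 0.000122). In the fetal libraries it stood at 25.8 and 25.2%, so that the old libraries alone lay above the rest in this fit. Tile 96125001 (14 CpGs) rose from 27.9 and 37.1% to 60 and 68.5% (adjusted p = 0.000202). With any 1 of the 4 libraries left out, the rises were 32.4 to 39 and 27.1 to 36.4 points. In the fit of all 25 libraries neither tile was called (adjusted p = 0.13 and 0.477). Tile 96125001 was also not called with a shift per library removed or with limma on log ratios (adjusted p = 0.0547 and 0.0598).

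Next to the Hoxb1 start, tile 96228001 rose from 21.9 and 24.8% in young to 55.3 and 46.4% in old cells (adjusted p = 0.000585). This tile begins 929 bases after the start of Hoxb1, a gene known for patterning the hindbrain. At 96110001 the old libraries, with 86 and 93.8%, were close to the fetal level, and the rise over young was 27.7 points (adjusted p = 0.00244). Neither 96228001 nor 96110001 was called with a shift per library removed, with limma on log ratios, or in the fit of all 25 libraries. Tiles 96121001, 96125001 and 96109001 were named among those in which the groups did not overlap. Tiles 96228001 and 96110001 were named after their values were seen. For all of them the lack of overlap is no finding.

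In the run, tile 96206001 rose from 38.7 and 43% to 50.4 and 76.2% (adjusted p = 0.04), with the old libraries far apart from each other. Tile 96207001 rose from 64.4 and 66.8% to 82.1 and 80.5% (adjusted p = 0.0231). Neither call held when any 1 of the 4 young and old libraries was left out. Tiles 96203001 and 96205001 differed by 6.32 and 7.89 points and were not called. The remaining gains, at 96054001, 96109001 and 96124001, had differences of 11.3, 27.9 and 27.2 points. The call at 96109001 held with limma on log ratios but not with a shift per library removed (adjusted p = 0.0418 and 0.248).

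Which libraries and which scaling were used set the number of calls. Without young replicate 1 there were 3, without young replicate 2 there were 5, without old replicate 1 there were 2, and without old replicate 2 there were 4. With a shift per library removed, the split was 1 higher and 1 lower in place of 9 and 0, when 1.12% of all tiles were called. The fit of all 25 libraries called 0 tiles, against 0.16% of all tiles, and limma on log ratios called 2 gains, when 0.979% of all tiles were called.

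A further 6 months without drug gave 0 called tiles of 43 in the cluster, against 0.0542% of all tiles. At an unadjusted p under 0.05 there were 4 tiles, or 9.3% of the cluster against 5.64% of all tiles, and limma on log ratios called 0. The fit of all 25 libraries called 1 gain. The tile with the smallest p was again 96110001, where 4 CpGs stood at 47.3 and 52.4% in young libraries and at 90.8, 88.2 and 93.4% in libraries with 0 doses. That rise of 40.9 points had an adjusted p of 0.0852 in the fit moderated by limma. The 96194001 tile stood at 71.1 and 74.9% against 94.1, 97.8 and 86.1% (adjusted p = 0.386), also without overlap.

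Neither 2 nor 4 doses of 5-FU, set against 0 doses at the same age, gave a called tile of 43, against 0.00524% and 0.00175% of all tiles. At an unadjusted p under 0.05 there were 7 and 8 tiles, or 16.3 and 18.6% of the cluster against 4.67 and 8.17% of all tiles. With limma on log ratios the counts were 0 and 2 (both lower), and the fit of all 25 libraries called 0 and 3. The groups compared hold no library of the contrast that chose the cluster, but share the libraries with 0 doses between them. The fit that gave the p-values also held the young libraries.

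After 4 doses, tile 96110001 had 58 and 31.6%, against 90.8, 88.2 and 93.4% after 0 doses and 81, 72.7 and 86.6% after 2. The difference between 4 and 0 doses was -46 points (adjusted p = 0.371). At 96215001, within 1 kb of the Hoxb3os start window, 3 CpGs stood at 34, 21.4 and 21.8% after 0 doses, at 11.2, 9.29 and 4.82% after 2 and at 2.27 and 0% after 4 (adjusted p = 0.634 and 0.371). Among the 5-FU groups, the libraries of 0 doses lay above all others there. At 96228001 the order was the opposite: 27.7, 24.4 and 18.9% after 0 doses, 34.5, 35.8 and 39.8% after 2, and 38.6 and 64.8% after 4 (adjusted p = 0.996 and 0.427).

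The CpG-dense tile 96181001, with 19 CpGs, stood at 1.28, 1.33 and 3.2% after 0 doses and at 13.3, 9.89 and 8.82% after 2 (adjusted p = 0.761). In the run, the 4-dose libraries were high at 96206001, with 63.8 and 82.4% against 39.5, 54.3 and 60.8% after 0 doses (adjusted p = 0.722). The shallowest library of all, replicate 2 of 4 doses, had 22835325 reads and 520 covered CpGs in the cluster.

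After transplantation of 10 young HSCs, 1 of 52 tiles (1.92%) was higher than in young bone marrow, against 1.1% of all tiles, a share near the background. None (0) was lower, against 17.1% of all tiles. At an unadjusted p under 0.05 there were 8 tiles, or 15.4% of the cluster against 36.8% of all tiles. The median difference was 0.194 points in the cluster and -4.43 points over all tiles. A tile under 10% cannot fall by the 10 points a call needs. Of the tiles covered in all 25 libraries, 45.2% in the cluster were under 10% throughout, against 31.7% of all tiles. The shares of losses and the medians are therefore not compared on like tiles. The single gain was at 96228001 after the Hoxb1 start, where the levels were 54.5, 50.2 and 40.6% after transplantation and 21.9 and 24.8% in young cells, a rise of 25.1 points (adjusted p = 0.00281). This comparison again shares the young libraries with the one that chose the cluster.

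The rise at 96228001 was called in 4 of 5 fits with 1 library left out, but not without young replicate 2, where the count was 0. Without replicate 2 of the 10 young cells the counts were 1 higher and 1 lower, and without replicate 3 they were 2 and 0. With a shift per library removed the counts were 0 higher and 8 lower, when 49.2% of all tiles were called, and the fit of all 25 libraries called 0. In the run, tile 96207001 stood at 68.3, 69.7 and 71.1% after transplantation and 78.3 and 82.6% in young cells (adjusted p = 0.0774), and tile 96203001 at 82.8, 71 and 67.1% against 89 and 78.2% (adjusted p = 0.245). With the shift per library removed, the 4 run tiles were called lower: 96203001 by -19.6 points, 96205001 by -15.9, 96206001 by -13.1 and 96207001 by -20.3 (adjusted p = 0.00987, 0.00141, 0.0455 and 0.000497).

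Against the mice with 0 doses of 5-FU, which share no library with the choice of the cluster, 10 young cells gave 0 called tiles of 47, against 0.124% of all tiles. There were 4 tiles at an unadjusted p under 0.05, or 8.51% of the cluster against 19.9% of all tiles. Limma on log ratios called 1 gain and 1 loss, when it called 3.44% of all tiles. With a shift per library removed there were 1 gain and 6 losses, when 27.9% of all tiles were called. The smallest adjusted p, 0.0698, was again at 96228001, with 54.5, 50.2 and 40.6% against 23.1, 22.2 and 17.1%.

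After transplantation of 10 old HSCs, 6 of 52 tiles (11.5%) were lower than in old bone marrow, against 22.8% of all tiles, and 0 were higher, against 0.569% of all tiles. Of the 4 tested tiles of the run, 3 were among the losses, while its summed level overlapped, with 67.6 and 82.7% in old and 52.9 and 77.2% after 10 old cells. The median difference was -0.791 points in the cluster and -6.41 over all tiles. The cluster again held a larger share of tiles too low to fall by 10 points, so these shares and medians are not compared on like tiles. Old bone marrow and the transplanted old cells share no library with the choice of the cluster, though the fit also held the young libraries.

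The losses in the run were as follows. At 96203001 (3 CpGs) the levels were 95 and 85.3% in old and 48.9 and 68.1% after transplantation, a fall of 31.7 points (adjusted p = 0.0122). At 96205001 they were 94.2 and 94.4% against 77.8 and 81.7% (adjusted p = 0.0136). At 96207001 they were 84.9 and 88% against 60.6 and 77.2% (adjusted p = 0.0146). Replicate 1 of the 10 old cells was the lower library in each. The fourth tile, 96206001, overlapped, with 50.4 and 76.2% against 43.2 and 57.8%, a difference of -12.8 points that was not called (adjusted p = 0.138).

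The other losses were at 96124001, 96130001 and 96194001, by 29.1, 14.4 and 14.7 points. The count was 0 without old replicate 1, 0 without old replicate 2 and 0 without replicate 1 of the 10 old cells. It was also 0 in the fit of all 25 libraries.

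After 500 old HSCs, 3 of 52 tiles were lower than in old bone marrow, against 7.87% of all tiles, and 1 was higher, against 0.376% of all tiles. The limit on losses in low tiles holds here too. The losses were at 96092001, 96130001 and 96205001. In the last, levels were 79.2, 86.6 and 80% against 94.2 and 94.4% (adjusted p = 0.0354). The gain was at 96172001, from 4.57 and 3.07% to 16.8, 15.8 and 9.86% (adjusted p = 0.0322), in a low tile of the Hoxb9 to Hoxb4 stretch.

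These counts also turned on single libraries. They were 0 without old replicate 1, 0 without old replicate 2 and 0 without replicate 1 of the 500 old cells. Without replicate 2 of them there were 2 losses, without replicate 3 there were 3 gains and 0 losses, and with a shift per library removed 4 losses and 0 gains, when 10.3% of all tiles were called. Tile 96121001, the largest gain with age, stood at 26, 45.4 and 22.4% after 500 cells and at 27.4 and 42.5% after 10 cells, against 59 and 52.4% in old bone marrow (adjusted p = 0.0609 and 0.0724). Both sets of transplanted libraries lay below both old ones.

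Between transplanted groups no tile of the cluster was called. For 10 against 500 old cells there were 0 of 52, against 0% of all tiles, with 3 at an unadjusted p under 0.05, or 5.77% of the cluster against 6.14% of all tiles. For 10 old against 10 young cells there were 0 of 52, against 0% of all tiles, and also 0 at an unadjusted p under 0.05, against 3.67% of all tiles. Limma on log ratios called 0 in both. At 96228001 the untransplanted old libraries lay above the young ones. The 11 transplanted libraries, from both donor ages, lay there between 40.8 and 61.8% over its 6 CpGs common to all libraries.

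**Figure D4:**
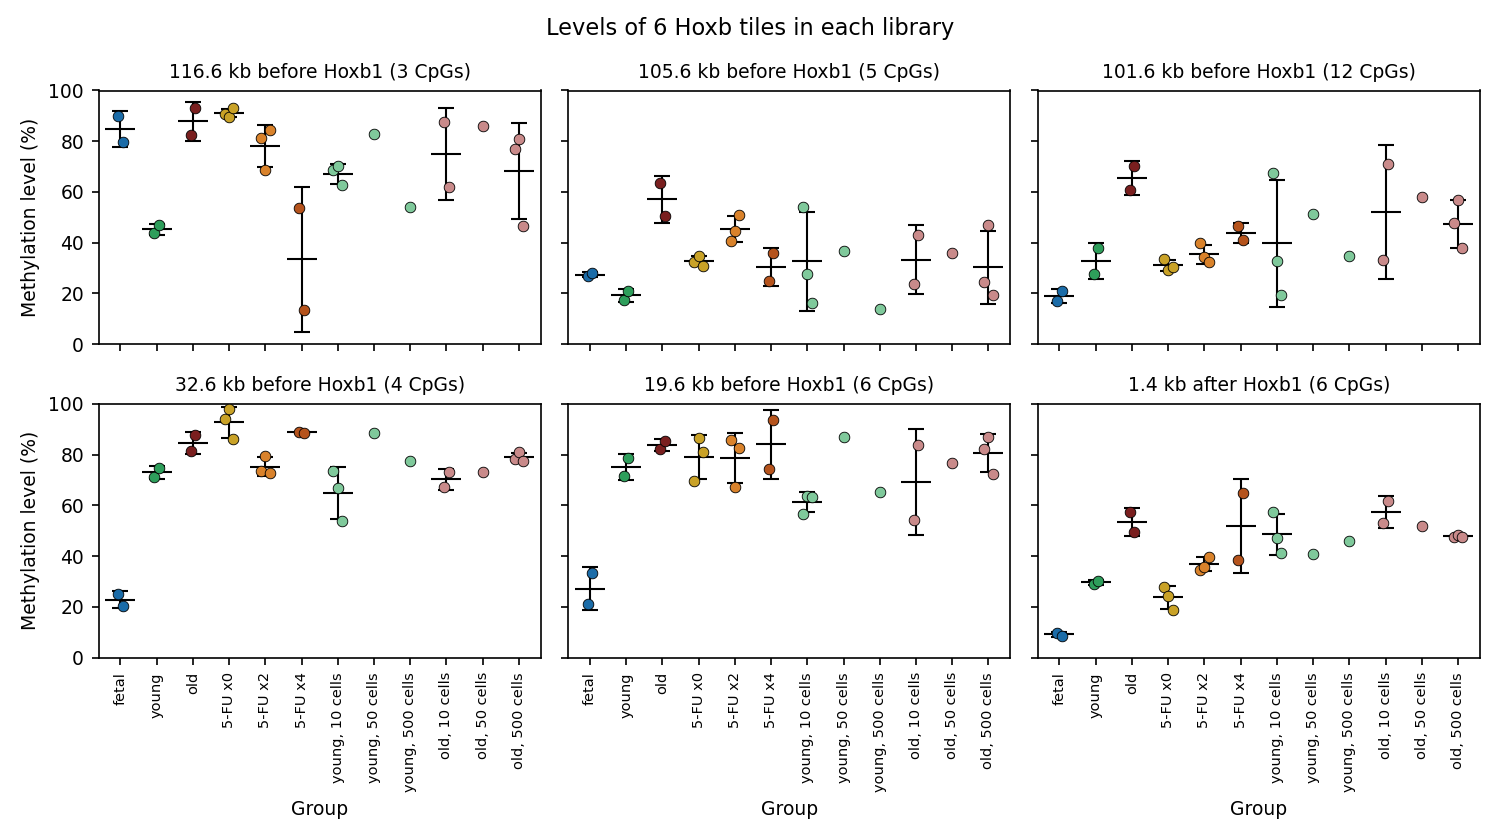
Methylation level (%) of 6 tiles in each library, over CpGs covered in all 25 libraries, by group, with the group mean and SD (bars); panel titles give the distance of the tile centre from the Hoxb1 start. At 1.4 kb after Hoxb1 the fetal libraries are at 9.79 and 8.45% and the transplanted ones between 40.8 and 61.8%, and at 116.6 kb before it the libraries run from 13.3 to 93.2%.

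Over the CpGs shared by all 25 libraries, tile 96110001 had no common trend with age: 84.8% ± 7.21 in fetal, 45.3% ± 2.12 in young, 87.8% ± 7.61 in old (n = 2 each), 91.1% ± 1.73 after 0 doses (n = 3) and 33.4% ± 28.4 after 4 doses (n = 2). It rests on 3 CpGs and 24 to 138 reads per library, so a library's level is known only roughly. Tile 96125001, with 12 CpGs and 181 to 1009 reads, had close replicates in fetal, young, old and 5-FU groups, with SDs of 2.31 to 7.12. After transplantation of 10 cells its libraries stood at 67.5, 32.6 and 19.2% from young donors and at 33.3 and 70.9% from old donors. At the neighbouring 96121001 the first of these young-donor libraries was again the highest, with 54.2%, against 27.5 and 16.1%.

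The other Hox clusters and the partners and regulators of Hox genes were taken from a list of 40 genes. Of these, 27 had a promoter sequence and 17 could be placed, none of them a Hoxc gene. There were 71 tested tiles within 5000 bases of a placed start, used here in place of gene bodies, which were not placed. In young against fetal 3 tiles were higher and 0 lower (4.23 and 0%), and in old against young 4 were higher and 0 lower (5.63 and 0%). Beside them stand 2.02 and 3.63% higher over all tiles, and 9 of 52 in the Hoxb cluster for each comparison. The Hoxb count takes in the whole window and not only tiles near starts. After 10 young cells 4 of 69 were higher and 0 lower, where 1.1 and 17.1% of all tiles were. After 10 old cells 4 were higher and 2 lower, where 0.569 and 22.8% of all tiles were, and after 500 old cells 2 were higher and 1 lower, where 0.376 and 7.87% were. How many of these tiles were too low to be called lower was not counted.

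Among 53751 tiles outside the cluster, the levels most like those of the run over the 25 libraries were at chr16:30120001-30121000 (Pearson's r = 0.874, 3 CpGs), chr6:48388001-48389000 (r = 0.859, 18 CpGs) and chr7:88202001-88203000 (r = 0.857, 5 CpGs). These are descriptions over libraries that share groups and depths. The first went from 28.8% in fetal to 69.7% in young and 85.7% in old cells, close to the run. The second moved over a far smaller range, from 82.2 to 94.6%, and the last from 7.84% in fetal to 81.6% after 4 doses of 5-FU.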

How the data were processed

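Per the labels' protocols, RRBS was adapted to low cell numbers. The authors' deposited files give, for every CpG, methylated and total reads as a pair of counts and a score, which equals the methylated share scaled and rounded down and was not tested. The build is mm9, from the submitters' processing notes. No source used here names the aligner, the caller or the handling of duplicates. Without molecular identifiers, counting errors are lower limits.

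CpGs with 5 or more reads in every library of a fit were summed in 1000-base tiles with 3 or more such CpGs on the 19 autosomes. Methylated reads were fitted with a quasi-binomial model with a mean per group and Williams weights. Dispersions were moderated with limma 3.58.1 (squeezeVar, R 4.3.3), and F-test p-values adjusted by Benjamini-Hochberg. The 4 fits held the 6 libraries of ontogeny, 10 of young and 5-FU groups, 15 of young, old and transplanted groups, or 8 of 0 doses and transplanted young cells. Groups of 1 library entered no comparison. The model was tested on simulated data. Python 3.11.15 (numpy 2.4.6, scipy 1.17.1) did the rest.

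Named tiles are those of the run, the 3 largest gains and losses per comparison whose groups do not overlap, tiles at placed starts, and the widest and narrowest ranges; the tiles 96228001 and 96215001 in the 5-FU groups, 96181001, and further called tiles were named after their values were seen. The members, lists and tests were chosen with earlier results of these data known. Alternatives were 10 reads per CpG, CpGs over 500 reads left out, limma on log ratios with 0.5 added, a fit of all 25 libraries, a replicate block, a shift per library (from 8 or more CpG-dense tiles) removed, and each library left out. Promoters were placed by CpG spacing, accepted with 4 or more CpGs all on CG pairs (outside the cluster, 3 more than the next best place).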

Additional observations from a re-analysis of the deposited data

Results flagged for a closer look

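At tile 96227001, which holds the Hoxb1 start, the change after transplantation of 10 cells went opposite ways by donor age. Levels rose by 2.12 points from young bone marrow (4.1 and 2.87%) to 10 young cells (4.72, 6.67 and 5.43%), and moved by -3.03 points from old bone marrow (8.23 and 8.15%) to 10 old cells (4.48 and 5.86%). The tile was picked because the libraries did not overlap and the directions were opposite, so neither is a finding. The difference was not tested, both changes are below 10 points, and neither was called.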

How the results depend on the processing

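The difference of the run between young and fetal cells, which chose it, was 36.3 points with 10 reads per CpG, 32.9 with CpGs over 500 reads left out, 34.6 over all CpGs of each library, 33.2 with CpGs weighted alike, and 28.2 to 37.5 with 1 library left out. Counts of called tiles moved more. Of 66 counts with another setting, 48 stayed within 1.5 times the count given, and of 54 with 1 library left out, 38 did. With 1 library left out the counts were 4 to 8 for young against fetal (10 in full), 2 to 5 for old against young (9), 0 to 2 for 10 young cells against young (1), 0 to 5 for 10 old cells against old (6) and 0 to 3 for 500 old cells against old (4). The fit of all 25 libraries called 5 for young against fetal, 0 for old against young, 1 for 0 doses against young, 3 for 4 against 0 doses, 0 for 10 young cells against young, 3 for 10 young cells against 0 doses, and 0 for both comparisons with old bone marrow. Limma on log ratios called 5, 2, 2 (4 against 0 doses) and 2 (10 young cells against 0 doses). With a shift per library removed there were 2 for old against young, 8 for 10 young cells against young and 7 for 10 young cells against 0 doses. The causes were not tested.

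Same-numbered libraries of compared groups had correlations of deviations from -0.097 to 0.141, so the replicate numbers gave no sign of pairing. In groups of 2 libraries the deviations mirror each other, so this cannot exclude pairing. For some libraries the title and the replicate label disagree, and the label was used. With the replicate block the counts were 6 for young against fetal, 2 for 10 young cells against young and 2 (both higher) for 500 old cells against old, and no other count moved past 1.5 times.

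Of single tiles in single comparisons, 260 values came from leaving out 1 library and 295 from other settings, and 17 and 5 of them changed sign; each of these was a tile of the run, uncalled in full. With a shift per library removed, tile 96203001 differed by -1.16 in old against young and -4.64 in 0 doses against young, and tile 96206001 by -1.19 in 2 against 0 doses and -13.1 in 10 young cells against young. The fit of all 25 gave 7.85 at 96207001 for 10 old against 10 young cells. With 1 library left out, 96203001 ranged from -0.809 to 13.5 (old against young), -9.91 to 11.8 (0 doses against young), -4.86 to 12.9 (2 against 0 doses) and -30.1 to 9.81 (4 against 0). Tile 96205001 ranged from -6.13 to 0.541 (2 against 0 doses) and -4.17 to 0.123 (10 against 500 old cells). Tile 96206001 ranged from -12.3 to 14.2 (2 against 0 doses), -25.7 to 0.112 and -20.9 to 4.97 (10 and 500 old cells against old), -12.2 to 2.44 (10 against 500 old cells) and -0.51 to 14.1 (10 old against 10 young cells). Tile 96207001 ranged from -10.4 to 2.28 (2 against 0 doses), -7.58 to 16.2 (4 against 0) and -9.04 to 7.48 (10 old against 10 young cells).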

Other observations

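The spread between libraries of a group was compared over the 13 cluster tiles with a group mean of 20 to 80%, a measure chosen after the values were seen. The median SD per tile was 2.48 points in fetal, 2.63 in young and 6.33 in old cells, 4.6, 5.05 and 6.29 points after 0, 2 and 4 doses of 5-FU, 4.52 points after 10 young cells, 5.95 after 500 old cells and 10.3 after 10 old cells. Over 20021 tiles of the same class on all autosomes the median SD was 2.5 points in fetal, 2.09 in young and 2.24 in old cells, 4.87, 5.11 and 5.25 points after 0, 2 and 4 doses, 5 points after 10 young cells, 4 after 500 old cells and 3.52 after 10 old cells. The largest SD of a cluster tile was 24.9 points after 10 young cells and 26.6 after 10 old cells. It was as wide after 2 and 4 doses of 5-FU, at 26.4 and 28.4 points, and 9.9 to 19 points in the other groups. These values are descriptions with 2 or 3 libraries a group and no test.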
